A study of Mus musculus with 24 samples.

Results

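The rod phototransduction cascade was represented by 9 genes, Gnat1, Gnb1, Gngt1, Pde6a, Pde6b, Pde6g, Cnga1, Cngb1 and Sag, whose rows were found by gene symbol among 46603 annotated genes in a table of 126602 counted features. Transcript levels of these genes were followed in mouse retinal organoids (MROs), retina-like tissues grown in suspension from the mouse embryonic stem cell line E14Tg2a with a protocol in which each aggregate is cut into parts. The labels give the genotype of all samples as Control. RNA was sequenced from single whole organoids, 6 for each of the culture days (D) D20, D22, D25 and D30, all of 1 independent experiment, so p-values measure the spread between organoids of 1 culture. All 4 groups were controls: only water, the solvent, was added during the time course, and all had received the retinoid analog EC23 earlier in culture. The comparisons ask how far the cascade's transcripts had been built up at the end of retinal cell birth, and how they changed in the following days.

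Rods detect light through a relay on the membrane discs of their outer segments. The light-activated visual pigment switches on the G protein transducin, made of an alpha subunit (Gnat1), a beta subunit (Gnb1) and a gamma subunit (Gngt1). Transducin relieves the inhibition of a cGMP phosphodiesterase, which is built from the catalytic subunits encoded by Pde6a and Pde6b and the inhibitory subunit encoded by Pde6g. Falling cGMP then closes a cation channel assembled from the subunits encoded by Cnga1 and Cngb1, and rod arrestin, encoded by Sag, caps the activated pigment. Gnb1 is also used by many other cell types, whereas the other genes are known mainly from photoreceptors. Rod gene promoters are known targets of the homeodomain factor CRX and the leucine zipper factor NRL.

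Stretches of 250 bases directly upstream of the annotated start are shown for the member with the steepest first step (Cngb1), the one highest at D25 relative to its D30 mean (Pde6b), the one with the most reads (Sag) and the one that many other cells use (Gnb1), as reference letters of the regions that precede these transcripts (RefSeq, GRCm38.p6). An entry was matched for 6 of the 9 genes. Capitals mark matches to the CRX core TAATCC (reverse complement GGATTA) or to the NRL motif TGCTGA, a piece of the longer site that NRL binds (reverse complement TCAGCA), both strands being searched, and none of the marked matches overlap. The sequences are written 5′ to 3′ on the strand of the gene. Cngb1 lies at chr8:95306586-95306835 (minus strand), Pde6b at chr5:108388123-108388372 (plus strand), Sag at chr1:87803430-87803679 (plus strand) and Gnb1 at chr4:155491111-155491360 (plus strand).
Cngb1: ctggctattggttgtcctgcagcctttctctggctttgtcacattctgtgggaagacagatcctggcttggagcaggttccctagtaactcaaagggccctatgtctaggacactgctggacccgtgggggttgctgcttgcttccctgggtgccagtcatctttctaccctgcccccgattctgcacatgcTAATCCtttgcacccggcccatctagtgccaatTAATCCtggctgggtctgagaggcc
Pde6b: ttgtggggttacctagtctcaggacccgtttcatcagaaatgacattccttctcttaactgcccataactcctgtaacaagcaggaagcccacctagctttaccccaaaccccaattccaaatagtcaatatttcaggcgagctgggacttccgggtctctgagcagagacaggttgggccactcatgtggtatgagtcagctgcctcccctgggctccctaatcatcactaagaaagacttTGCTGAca
Sag: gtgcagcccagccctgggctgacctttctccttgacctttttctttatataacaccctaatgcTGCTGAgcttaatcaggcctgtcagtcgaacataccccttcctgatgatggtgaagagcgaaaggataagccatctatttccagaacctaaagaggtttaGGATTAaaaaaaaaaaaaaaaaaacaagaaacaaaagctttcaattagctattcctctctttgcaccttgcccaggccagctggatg
Gnb1: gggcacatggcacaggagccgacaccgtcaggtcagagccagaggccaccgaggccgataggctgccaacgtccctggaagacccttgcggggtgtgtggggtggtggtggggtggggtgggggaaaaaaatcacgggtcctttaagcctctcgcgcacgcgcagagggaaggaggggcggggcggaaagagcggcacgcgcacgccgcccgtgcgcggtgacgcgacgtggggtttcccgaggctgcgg

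Cngb1 carried 2 CRX cores, at 58 to 53 and at 25 to 20 bases before the start. Sag carried 1 CRX core at 87 to 82 bases and 1 NRL motif at 187 to 182 bases before the start, and Pde6b carried 1 NRL motif at 8 to 3 bases. Neither motif was found in the window of Gnb1. Of the windows not printed, Gngt1 held a CRX core at 44 to 39 bases and Cnga1 at 228 to 223 bases. Both of these windows overlap exons of their own gene in the annotation used for the positions below, so they do not lie wholly upstream of it. Among 32851 windows of the same length, 6.252% held a CRX core, 16.08% an NRL motif and 0.9619% both. These matches are descriptions of letters in the window.

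Each organoid had 13634846 to 19477108 reads on the counted features (median 15791636.5), and 3 counts, the level allowed by a count of 0, corresponded to 0.154 to 0.22 CPM, that is reads scaled to a common library total. Levels are given as normalized CPM, for which the library size was scaled by TMM. The 9 genes together took 0.0742% to 0.163% of the counted reads at D20 (median 0.128%), 0.175% to 0.412% at D22 (median 0.226%), 0.604% to 0.769% at D25 (median 0.651%) and 0.644% to 1.38% at D30 (median 0.914%). The rod factor gene Nrl was counted in every organoid, with at least 680 reads. In whole organoids, fewer cells of a type and less RNA per cell cannot be told apart, so all levels describe the tissue and not single rods.

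**Figure D1:**
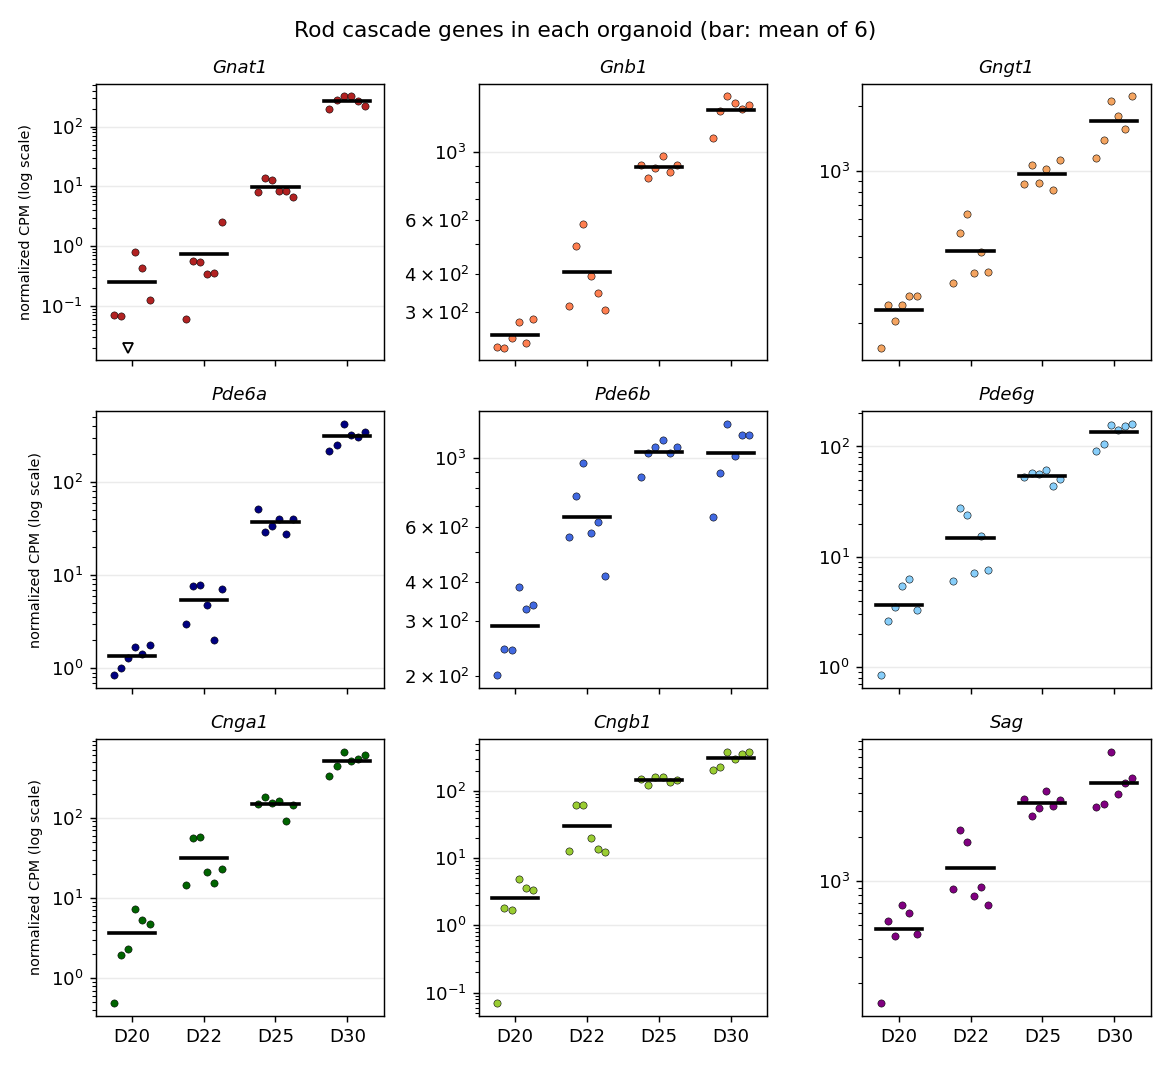
Normalized CPM (log scale, each panel with its own range) of the 9 genes in each of 24 organoids, by timepoint. Points are organoids and bars are means of 6, the open triangle marks the D20 organoid with 0 reads on Gnat1, and Gnat1 covers the widest range, from 0 to 323 normalized CPM.

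Gnat1, the rod transducin alpha subunit (ENSMUSG00000034837, GRCm38 chromosome 9 from 107674474 to 107679712, minus strand), was close to absent at the first timepoints and had the largest fold change of the cascade. At D20 the 6 organoids held 1, 1, 0, 12, 6 and 2 reads on Gnat1, and at D22 they held 1, 8, 8, 5, 5 and 38 reads. These groups overlapped, and their difference did not pass the test (log2 fold change 1.53 ± 0.62 standard error, adjusted p = 0.168). Normalized CPM of Gnat1 then reached 6.65 to 13.7 at D25 (median 8.31) and 200 to 323 at D30 (median 273). No organoid of D25 overlapped with D22 or D30. Gnat1 rose by 3.70 ± 0.38 on the log2 scale from D22 to D25 (13.0-fold, adjusted p = 3.25e-07) and by 4.81 ± 0.32 from D25 to D30 (28.0-fold, adjusted p = 2.78e-11). The D22 organoid with 38 reads set much of the D20 to D22 estimate, which was 0.55 without it (adjusted p = 0.674) and 2.36 without the D20 organoid with 12 reads (adjusted p = 0.047). The rise from D22 to D25 was 4.68 without the former.

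The beta and gamma subunits of transducin were already well expressed at D20, and each rose in all 3 steps. Gnb1 (ENSMUSG00000029064, chromosome 4 from 155491361 to 155559269) was measured at 230 to 285 normalized CPM at D20 (median 243), 305 to 582 at D22 (median 369), 821 to 968 at D25 (median 895) and 1108 to 1521 at D30 (median 1400.1). The organoids of consecutive timepoints did not overlap for Gnb1. Its log2 fold changes were 0.69 ± 0.12 from D20 to D22 (adjusted p = 0.000405), 1.14 ± 0.12 from D22 to D25 (adjusted p = 2.71e-07) and 0.62 ± 0.12 from D25 to D30 (adjusted p = 0.000604).

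Gngt1 (ENSMUSG00000029663, chromosome 6 from 3993792 to 3997436) followed a similar course, from 153 to 266 normalized CPM at D20 (median 241) over 304 to 632 at D22 (median 384) and 816 to 1123 at D25 (median 949) to 1149 to 2211 at D30 (median 1673). Its consecutive groups were also apart. The log2 fold changes were 0.91 ± 0.16 (adjusted p = 0.000753), 1.17 ± 0.16 (adjusted p = 2.06e-05) and 0.82 ± 0.16 (adjusted p = 0.00113). The 3 transducin genes therefore began from very unequal positions: at D20 the mean level was 0.0918% of the D30 mean for Gnat1, 18.4% for Gnb1 and 13.4% for Gngt1.

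The phosphodiesterase genes also differed widely in timing. Pde6b, the beta catalytic subunit (ENSMUSG00000029491, chromosome 5 from 108388391 to 108432397), had the highest level of the 3 throughout per kilobase. Its D25 mean was already 100.7% of its D30 mean. It was measured at 201 to 385 normalized CPM at D20 (median 286), 418 to 963 at D22 (median 599), 868 to 1141 at D25 (median 1059.5) and 644 to 1284 at D30 (median 1098). D20 and D22 were apart, D22 and D25 overlapped, and the organoids of D30 spanned those of D25 on both sides. Pde6b rose by 1.16 ± 0.17 from D20 to D22 (adjusted p = 6.50e-05) and by 0.68 ± 0.16 from D22 to D25 (adjusted p = 0.00592), and differed by -0.01 ± 0.16 between D25 and D30 (adjusted p = 0.989). The second of these rises lost its call without any 1 of 8 organoids, D22 replicate 1, 4, 5 or 6 or D25 replicate 3, 4, 5 or 6 (adjusted p of up to 0.0205).

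Pde6a, the alpha catalytic subunit (ENSMUSG00000024575, chromosome 18 from 61220315 to 61289924), came much later. It stood at 0.839 to 1.79 normalized CPM at D20 (median 1.36, 12 to 28 reads per organoid), 2.01 to 7.77 at D22 (median 5.92), 27.7 to 51.7 at D25 (median 36.8) and 218 to 422 at D30 (median 314). All consecutive groups were apart. The steps were 1.98 ± 0.28 (adjusted p = 5.11e-05), 2.79 ± 0.23 (adjusted p = 2.54e-08) and 3.06 ± 0.22 (adjusted p = 1.2e-10).

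Pde6g, which encodes the inhibitory subunit (ENSMUSG00000025386, chromosome 11 from 120447605 to 120453500, minus strand), lay between the 2 catalytic genes in its timing. Its levels were 0.839 to 6.26 normalized CPM at D20 (median 3.39), 6.07 to 27.9 at D22 (median 11.5), 44.2 to 61.2 at D25 (median 54.4) and 90.5 to 160.3 at D30 (median 146). Only D20 and D22 overlapped. Pde6g rose by 2.00 ± 0.33 (adjusted p = 0.000354), 1.88 ± 0.31 (adjusted p = 0.000137) and 1.32 ± 0.29 (adjusted p = 0.00409), the last of which missed 0.01 without D25 replicate 5 (adjusted p = 0.0138) or replicate 6 (adjusted p = 0.0106).

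The 2 channel genes had the steepest first step. Cnga1 (ENSMUSG00000067220, chromosome 5 from 72603696 to 72644275, minus strand) was measured at 0.489 to 7.19 normalized CPM at D20 (median 3.51), 14.5 to 56.9 at D22 (median 22.1), 92.0 to 183 at D25 (median 151) and 336 to 670.5 at D30 (median 523). Cngb1 (ENSMUSG00000031789, chromosome 8 from 95239045 to 95306585, minus strand) was measured at 0.0699 to 4.82 at D20 (median 2.57), 12.5 to 62.4 at D22 (median 16.7), 123 to 161 at D25 (median 147) and 202 to 385 at D30 (median 328). Consecutive groups were apart for both genes. In D20 replicate 1 the counts were 7 for Cnga1 and 1 for Cngb1, the lowest of that day.

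From D20 to D22 Cnga1 rose by 3.08 ± 0.37 (8.47-fold, adjusted p = 9.18e-06) and Cngb1 by 3.56 ± 0.43 (11.8-fold, adjusted p = 9.18e-06). The following step was 2.24 ± 0.33 for Cnga1 (adjusted p = 5.22e-05) and 2.26 ± 0.37 for Cngb1 (adjusted p = 0.00017). From D25 to D30 Cnga1 rose by 1.81 ± 0.33 (adjusted p = 0.000415), whereas the difference of 1.07 ± 0.36 for Cngb1 did not pass 0.01 (adjusted p = 0.068) although every D30 organoid was above every D25 organoid. In a fit of D25 and D30 alone this difference did pass (adjusted p = 0.000154).

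Rod arrestin, Sag (ENSMUSG00000056055, chromosome 1 from 87803680 to 87845158), was the member with the most reads from D20 on. It was measured at 146 to 680.4 normalized CPM at D20 (median 479.9), 682 to 2237 at D22 (median 889), 2782 to 4133 at D25 (median 3381) and 3209.8 to 7630.4 at D30 (median 4300.9). D20 and D22 were separated only narrowly, and D25 and D30 overlapped. Sag rose by 1.38 ± 0.28 (adjusted p = 0.00256) and then by 1.48 ± 0.28 (adjusted p = 0.000614), and its difference between D25 and D30 was 0.45 ± 0.27 (adjusted p = 0.428). The first rise lost its call without D22 replicate 2 or without D22 replicate 3, the 2 highest organoids of that day (adjusted p = 0.0132 in both).

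Counted over the cascade, 8 of 9 genes passed the test as higher from D20 to D22, against 1.62% of all tested features and 2.56% of the annotated genes. From D22 to D25 all 9 rose (background 3.08% and 7.33%), and from D25 to D30 6 of 9 rose (1.76% and 4.55%), the exceptions being Pde6b, Cngb1 and Sag. None was lower in any step, where 0.285%, 2.19% and 1.75% of all features were, nor over the whole interval (13%). From D20 to D30 all 9 were higher (13.9% and 25.1%), and all 9 changed over the 4 timepoints in the joint test (27.2% and 43.9%). The median log2 fold change of the 9 genes was 1.53, 1.88 and 1.07 in the 3 steps and 5.20 over the whole interval, beside medians of 0.02, -0.05, -0.02 and -0.04 over all tested features. Organoids did not overlap for 7, 8, 7 and 9 of the 9 genes in these comparisons, where 2.36%, 7.11%, 4.46% and 17% of annotated genes were non-overlapping and higher. Consecutive steps share a timepoint, so these counts are not independent of each other.

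The size of the whole rise differed widely between members. From D20 to D30 the log2 fold change was 10.04 ± 0.46 for Gnat1 (adjusted p = 2.73e-16), 7.84 ± 0.30 for Pde6a (adjusted p = 6.88e-18), 7.13 ± 0.43 for Cnga1 (adjusted p = 4.08e-14) and 6.90 ± 0.48 for Cngb1 (adjusted p = 9.32e-13). Pde6g rose by 5.20 ± 0.36 (adjusted p = 9.18e-13). The smallest log2 fold changes were those of Sag (3.31 ± 0.30, adjusted p = 2.61e-10), Gngt1 (2.90 ± 0.17, adjusted p = 3.37e-14), Gnb1 (2.44 ± 0.12, adjusted p = 1.34e-15) and Pde6b (1.84 ± 0.17, adjusted p = 4.16e-10). These genes had the highest D20 levels, and the D20 level is the denominator of the fold. In normalized CPM the mean of Sag went from 469 at D20 to 4639 at D30, and that of Gnat1 from 0.247 to 269. The value for Gnat1 rests on 22 reads in all at D20 and was 10.86 without D20 replicate 4.

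**Figure D2:**
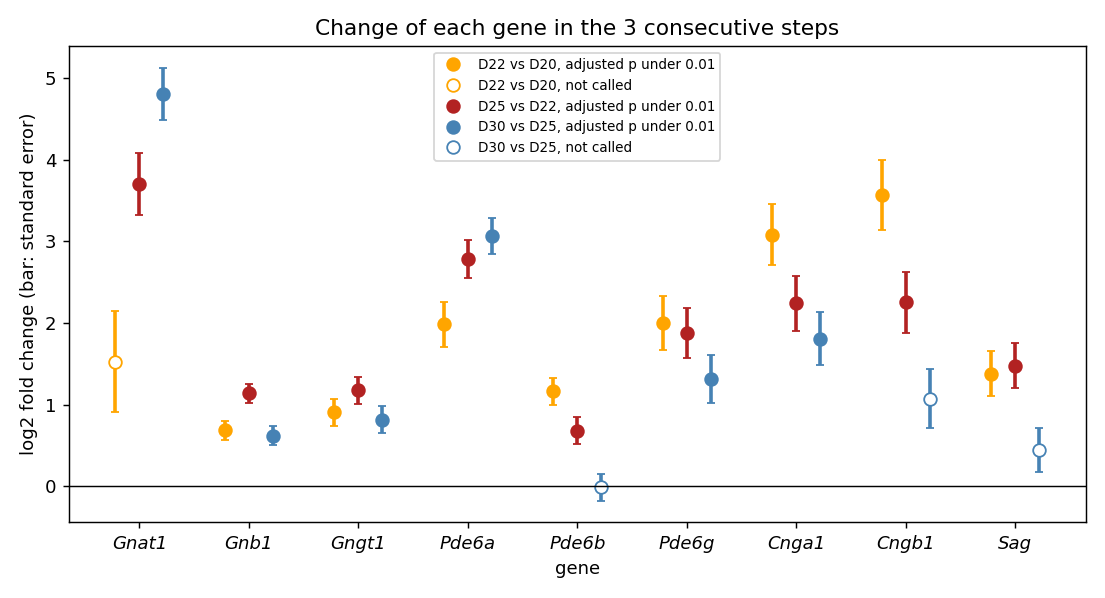
Log2 fold change of each gene from D20 to D22, D22 to D25 and D25 to D30, with the standard error as bar. Filled points passed an adjusted p of 0.01 and open points did not: Gnat1 in the first step, and Pde6b, Cngb1 and Sag in the last.

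Whether a gene rose faster in one step than in the next was tested as a difference of steps. None of the 9 genes passed for the step D25 to D30 against D22 to D25 (0.0106% of all features passed as higher and 0.0341% as lower), nor for D22 to D25 against D20 to D22 (0.00639% and 0.0213%), by edgeR or by DESeq2. In the first contrast 3 genes had an unadjusted p under 0.05, namely Gnb1 (-0.52 ± 0.20, adjusted p = 0.511), Pde6b (-0.69 ± 0.28, adjusted p = 0.554) and Sag (-1.03 ± 0.46, adjusted p = 0.635). In the second there were 2, Gnat1 (2.18 ± 0.95, adjusted p = 0.328) and Gnb1 (0.45 ± 0.20, adjusted p = 0.335). The days between timepoints also differ, so a step is not a rate.

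The mean level of each gene was also set against its own mean at D30, the last day sampled. Differences between these percentages were not tested. At D22 the mean level was 62.7% of the D30 mean for Pde6b, 29.6% for Gnb1, 26.3% for Sag and 25.1% for Gngt1, but 10.9% for Pde6g, 9.94% for Cngb1, 6.04% for Cnga1, 1.73% for Pde6a and 0.272% for Gnat1. At D25 it was 100.7% for Pde6b, 73.4% for Sag, 65.0% for Gnb1, 56.7% for Gngt1, 47.5% for Cngb1, 40.2% for Pde6g, 28.6% for Cnga1, 11.9% for Pde6a and 3.58% for Gnat1. Pde6b came first and Gnat1 last at each of these days.

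**Figure D3:**
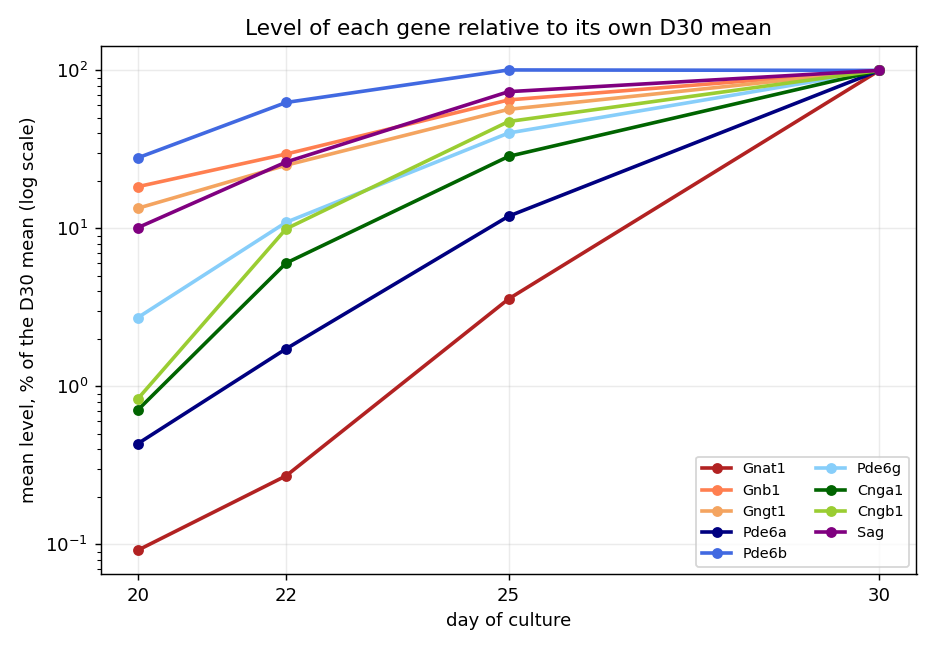
Mean normalized CPM of 6 organoids as a percentage of the gene's own D30 mean (log scale) against the day of culture. The lines order the genes from Pde6b, at 28.0% on D20, to Gnat1, at 0.0918%.

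Levels of different genes were compared per kilobase of annotated exon (RPKM on the normalized library size). At D20 the 9 genes formed an upper and a lower set that were apart. Gngt1 (64.8), Gnb1 (59.0), Pde6b (57.5) and Sag (52.6) overlapped with their neighbours in that order, and the next gene was Pde6g at 1.58. The order went on with Cnga1 (0.577), Pde6a (0.287), Cngb1 (0.274) and Gnat1 (0.0816), neighbours that also overlapped. At D22 the same 4 genes led, in the order Sag (137), Pde6b (129), Gngt1 (121) and Gnb1 (95.0), and were apart from Pde6g (6.32). At D25 Sag (382) and Gngt1 (274) came first, followed by Gnb1 (209) and Pde6b (207), and each of Cngb1 (15.6), Pde6a (7.91) and Gnat1 (3.18) was apart from its neighbours.

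At D30 the order by mean RPKM was Sag (521 ± 184, SD, n = 6), Gngt1 (483 ± 118), Gnb1 (321 ± 33.1), Pde6b (206 ± 47.1), Gnat1 (88.9 ± 16.5), Cnga1 (81.4 ± 18.8), Pde6a (66.2 ± 15.5), Pde6g (57.8 ± 12.7) and Cngb1 (32.9 ± 8.24). Neighbours overlapped except that Pde6b was apart from Gnb1 above and from Gnat1 below. Gnat1 thus moved from the ninth place at D25 to the fifth. The places within each set depended on the length used: with the principal coding transcript alone, a choice made after the values had been seen, the 4 leading genes stayed in front at every timepoint and Gnat1 was in place 9 up to D25 and in place 7 at D30.

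Ratios of 2 genes within a library need no scaling between libraries. They show how transcripts of the subunit genes of a complex moved against each other in the whole organoid. The ratio of Pde6a to Pde6b per kilobase was 0.00458 to 0.00596 at D20 (median 0.00482), 0.00353 to 0.0182 at D22 (median 0.00883), 0.0288 to 0.0639 at D25 (median 0.0357) and 0.279 to 0.362 at D30 (median 0.326). The 2 catalytic subunit genes of 1 enzyme were thus apart by a factor that shrank as Pde6a rose and Pde6b rose less. The log2 ratio changed by 0.70 from D20 to D22 (two-sided exact permutation test, adjusted p = 0.0746), by 2.18 from D22 to D25 and by 3.11 from D25 to D30 (exact permutation test, adjusted p = 0.00442 for both, the smallest value these tests gave). With the principal transcript lengths the D30 median was 0.186.

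Pde6g to Pde6b behaved likewise, with medians of 0.0271, 0.0464, 0.114 and 0.286 at the 4 timepoints. Its log2 ratio changed by 0.82 (exact permutation test, adjusted p = 0.0934), 1.40 and 1.33 (adjusted p = 0.00442 for both). D25 was apart from D22 and from D30 for both phosphodiesterase ratios. With the principal transcript lengths the D30 median was 0.411 for Pde6g to Pde6b and 0.263 for Cngb1 to Cnga1. The channel ratio, Cngb1 to Cnga1, moved less: its medians were 0.475, 0.621, 0.678 and 0.402, and its changes were 0.57 (exact permutation test, adjusted p = 0.146), 0.19 (adjusted p = 0.451) and a fall by 0.76 from D25 to D30 (adjusted p = 0.00442), when all 6 D30 organoids were below all 6 D25 organoids.

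**Figure D4:**
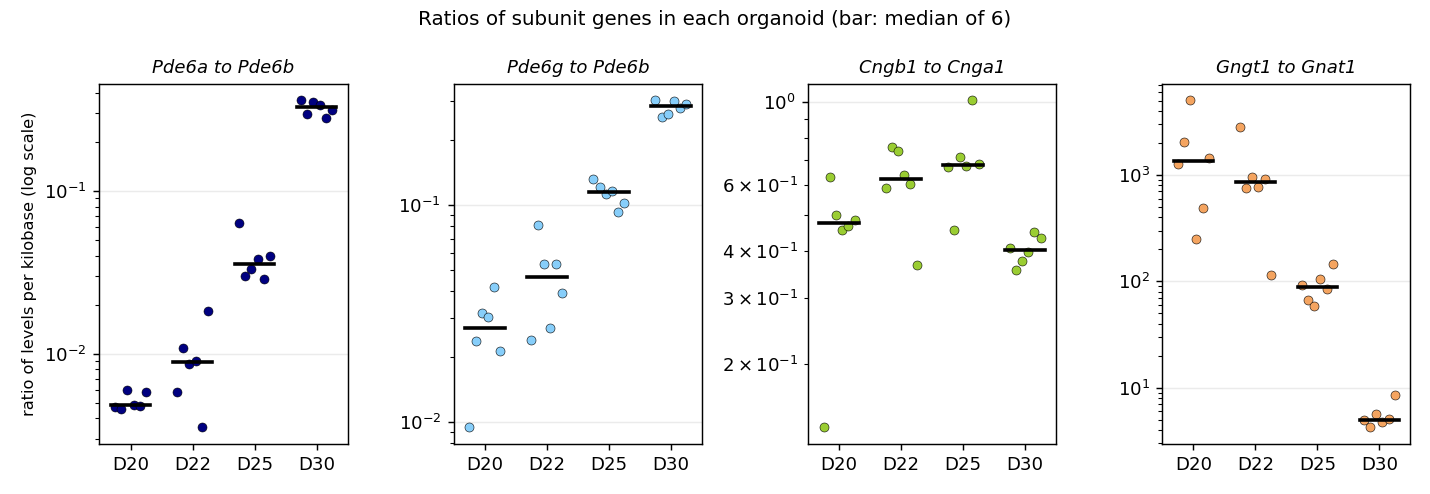
Ratios of levels per kilobase in each organoid (log scale) for Pde6a to Pde6b, Pde6g to Pde6b, Cngb1 to Cnga1 and Gngt1 to Gnat1 at the 4 timepoints, with 0.5 added to each count. Bars are medians of 6, and the medians run from 0.00482 to 0.326 for Pde6a to Pde6b and from 1344 to 5.01 for Gngt1 to Gnat1.

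Within transducin, the gamma to alpha ratio (Gngt1 to Gnat1 per kilobase) had medians of 1344, 851, 88.7 and 5.01 at the 4 timepoints, and the beta to alpha ratio (Gnb1 to Gnat1) had medians of 1414, 669, 76.6 and 3.55. Both depend at D20 and D22 on a handful of Gnat1 reads and on the 0.5 added to each count. With the principal transcript lengths the gamma to alpha medians were 3069, 1944, 203 and 11.4. Since Gnb1 is also used by many other cell types, the beta to alpha ratio does not describe rods alone. The gamma to alpha log2 ratio changed by -0.63 in the first step (exact permutation test, adjusted p = 0.554), by -3.07 in the second (adjusted p = 0.00761) and by -4.04 in the third (adjusted p = 0.00442). The beta to alpha ratio changed by -0.86 (exact permutation test, adjusted p = 0.434), -3.11 (adjusted p = 0.00761) and -4.21 (adjusted p = 0.00442).

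Against Gnat1, the ratios of Sag, Pde6b and Cnga1 fell as well in the last step, by 4.44, 4.87 and 3.03 on the log2 scale (exact permutation test, adjusted p = 0.00442 each). In the middle step they fell by 2.67 (adjusted p = 0.0158), 3.56 (adjusted p = 0.00442) and 1.84 (adjusted p = 0.0307), the last of which lost its call without any 1 of D22 replicates 1, 2 and 3 and D25 replicates 2, 3 and 5 (exact permutation test, adjusted p = 0.0552). In all, 15 of 24 ratio tests within the cascade passed an adjusted p of 0.05. The pairs over Gnat1 share that gene, so their calls restate its rise in part and are not separate results. How many ratios of other genes would pass was not tested.

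Nrl, the gene of the rod-specifying transcription factor, served as a second reference within each library. The ratio of Pde6b to Nrl changed little and passed in the last step alone: its log2 ratio changed by -0.22 (exact permutation test, adjusted p = 0.159), 0.01 (adjusted p = 0.914) and 0.22 (adjusted p = 0.0158) in the 3 steps, and its medians per kilobase were 3.94, 3.42, 3.41 and 3.87. Sag to Nrl changed by 0.00 (exact permutation test, adjusted p = 0.976), then by 0.90 (adjusted p = 0.0138) and 0.66 (adjusted p = 0.0107). Gnb1 and Gngt1 fell against Nrl in the first step, by 0.72 (exact permutation test, adjusted p = 0.00442) and 0.49 (adjusted p = 0.00761), since Nrl itself rose by more. They rose against it in the next step by 0.46 and 0.49 (exact permutation test, adjusted p = 0.00761 and 0.0158) and in the last by 0.88 and 1.05 (adjusted p = 0.00442 for both).

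The channel genes outran Nrl from the start. Cnga1 to Nrl rose by 1.89 (exact permutation test, adjusted p = 0.0107), 1.73 and 2.07 (adjusted p = 0.00442 for both), and Cngb1 to Nrl by 2.46, 1.91 and 1.301 (adjusted p = 0.00442 each). Gnat1, Pde6a and Pde6g changed against Nrl in the first step by 0.14, 0.49 and 0.61 (exact permutation test, adjusted p = 0.914, 0.239 and 0.197). In the later steps they rose by 3.57 and 5.09, by 2.19 and 3.33 and by 1.41 and 1.55 (exact permutation test, adjusted p = 0.00442 each). Of the 27 ratio tests to Nrl, 21 passed. They share Nrl as their reference, so they are not independent of each other.

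Single organoids moved with several members at once. D30 replicate 1 was the lowest of its day in 9 of 9 genes, with 644 normalized CPM of Pde6b, and D30 replicate 3 was the highest in 6. D30 replicate 1 also had the lowest sum of the rod cascade partners described below (5223 normalized CPM), the lowest sum of 7 photoreceptor factor genes (1731) and the highest sum of 4 Müller glia markers (1988). Their part in the D30 values was not tested, and the number of genes called from D25 to D30 was 6 with and without that organoid. D20 replicate 1 was the lowest in 7 genes and D20 replicate 4 the highest in 5. D22 replicate 3 was the highest in 5 genes and D22 replicate 2 in 3.

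Markers of other cells were compared over the same days, and 25.1% of annotated genes were called higher from D20 to D30. The sum of 4 bipolar cell markers (Grm6, Trpm1, Cabp5 and Prkca) was 26.8 to 34.9 normalized CPM at D20 and 198 to 294 at D30, all 4 of them higher at D30. The sum of 4 Müller glia markers (Rlbp1, Glul, Aqp4 and Slc1a3) was 264 to 366 at D20 and 564 to 1988 at D30, 3 of them higher. The sum of 4 amacrine cell markers was 55.2 to 138 at D20 and 52.8 to 177 at D30, with 1 higher. A list of 6 genes known from cortical neurons summed to 5.51 to 201 at D20 and 8.15 to 240.2 at D30, with 1 higher. Neurod6 had the highest D30 mean of this list (93.7), and the paper places its expression in postmitotic amacrine cells. The sum is therefore no measure of cortical neurons alone. In the D22 to D25 step, in which all 9 members rose, the sum of this list went from 3.31 to 15.9 at D22 to 7.67 to 275 at D25. Of its 6 genes 2 were higher (7.33% of annotated genes were), Neurod2 (11.8-fold, edgeR, adjusted p = 0.0036) and Neurod6 (22.5-fold, adjusted p = 0.00466). The median log2 fold change of the list was 2.48. The sum of 6 pigment epithelium genes was 5.61 to 39.2 at D20 and 16.4 to 84.7 at D30, with 1 of 4 tested genes higher, Mitf (1.34 ± 0.24, adjusted p = 4.58e-05). Tyrp1, Pmel and Tyr had values of 2.15 ± 0.79, 1.56 ± 0.92 and 1.01 ± 0.82 (adjusted p = 0.032, 0.19 and 0.352), and Rpe65 and Best1 stayed below 0.5 normalized CPM in every organoid. With 1 gene higher each from D20 to D30, the amacrine, cortical and pigment epithelium lists did not exceed the 25.1% share. The part of tissue makeup in the levels of the rod genes was not tested.

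Correlations of log2 normalized CPM over the 24 organoids describe which courses were most alike, and all of them share the time course and the library of each organoid. Between members, Pearson's r ran from 0.698 for Pde6b with Gnat1 to 0.990 for Cngb1 with Cnga1. Among 10909 annotated genes with enough counts, Gnat1 was most like 5430419D17Rik (r = 0.981), Fgf2 (0.975) and Scn7a (0.972), and Pde6a most like Fgf2 (0.989), Gucy2e (0.986) and Pdzph1 (0.985). Gnb1 was most like Ndrg3 (0.992), Arhgef26 (0.992) and Herc3 (0.991), and Gngt1 close to Bbs4 (0.991) and Gm26954 (0.990). The nearest genes to Pde6b were Ppef2 (0.981), Rd3 (0.980) and Samd11 (0.980), and Pde6g was close to Osbp2 (0.990) and Lrit1 (0.988). Cnga1 was close to Prph2 (0.991), Cngb1 to Rdh12 (0.994) and Prph2 (0.993), and Sag to Rp1 (0.984), Ccdc126 (0.981) and March1 (0.981).

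Other genes of the rod cascade were 14 partners, which act in pigment phosphorylation, cGMP synthesis, calcium feedback and shutoff or bind transducin or the phosphodiesterase (Pdc, Unc119, Aipl1 and Pde6d). Guca1b had too few reads for a test. Of the other 13, 10, 11 and 8 rose in the 3 consecutive steps and 13 over the whole interval, and none fell. Of all annotated genes, 2.56%, 7.33%, 4.55% and 25.1% were higher in these comparisons. Their median log2 fold change was 0.97, 1.09, 1.104 and 2.60 in these comparisons. Recoverin (Rcvrn), a calcium sensor of photoreceptors, rose by 3.13 ± 0.30, 2.74 ± 0.27 and 1.51 ± 0.25 in the 3 steps (adjusted p = 5.2e-07, 1.91e-07 and 0.000162). Slc24a1, the rod sodium/calcium-potassium exchanger, rose by 1.79 ± 0.24, 1.99 ± 0.24 and 1.53 ± 0.23 (adjusted p = 3.49e-05, 2.72e-06 and 4.99e-05). The guanylate cyclase gene Gucy2f was counted with 1 read in all 6 D20 organoids together and with 4306 at D30. Its relative Gucy2e was present from D20 and rose by 3.14 ± 0.13 from D20 to D30 (adjusted p = 2.28e-17). Phosducin (Pdc), which binds transducin beta and gamma subunits, rose by 0.97 ± 0.15 and 0.61 ± 0.15 and differed by -0.02 ± 0.15 from D25 to D30 (adjusted p = 0.000193, 0.00729 and 0.98).

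The cone counterparts of the members changed in both directions. Of 8 genes (Pde6h had too few reads for a test), none was called higher in any of the 3 steps, where 2.56%, 7.33% and 4.55% of annotated genes were. The cone transducin gamma gene Gngt2 fell by 2.13 on the log2 scale from D25 to D30 (standard error 0.20, edgeR, adjusted p = 1.76e-08), where 1.75% of all tested features were lower. At an unadjusted p under 0.05 (edgeR), Gnb3 and Gngt2 were up and Pde6c down in the first step. At that limit Pde6c was down in the second step, and Gnat2 was up in the last. From D20 to D30, 3 of the 7 tested genes were higher, the cone transducin alpha gene Gnat2 (0.90 ± 0.25, adjusted p = 0.00499), Gnb3 (1.01 ± 0.16, adjusted p = 8.02e-06) and cone arrestin Arr3 (1.22 ± 0.30, adjusted p = 0.00158). Lower were Gngt2 (-1.74 ± 0.20, adjusted p = 3.33e-08) and the cone phosphodiesterase gene Pde6c (-1.21 ± 0.18, adjusted p = 2.29e-06). The channel genes Cnga3 (1.62 ± 0.62, adjusted p = 0.0391) and Cngb3 (-0.09 ± 0.17, adjusted p = 0.711) did not pass. Over this interval 25.1% of annotated genes were called higher, and 13% of all tested features lower. The difference between a rod gene and its counterpart was not tested. The sum of the 8 cone genes was 280.5 to 531 normalized CPM at D20 and 251 to 599.5 at D30. Gnb3 was its largest term at D30 (mean 268), and which cells carried these transcripts was not tested. The sum of the 9 members, Gnb1 included, went from 733 to 1606 up to 7157 to 14484.

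**Figure D5:**
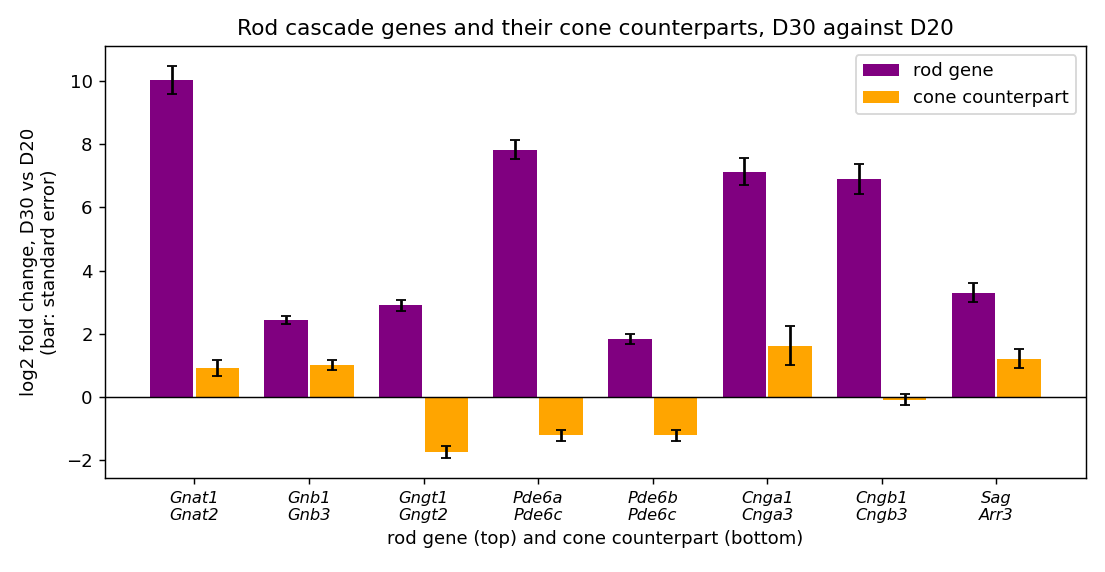
Log2 fold change from D20 to D30 of 8 rod genes and of the cone counterpart printed below each, with standard errors. Pde6c, the single catalytic subunit gene of cones, is drawn beside both Pde6a and Pde6b, and the rod genes lie between 1.84 and 10.04 where the cone genes lie between -1.74 and 1.62.

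Genes of photoreceptor transcription factors were called in both directions, and of these Nrl, Nr2e3 and Crx were called only as higher. Of 7 photoreceptor transcription factor genes, 3 rose from D20 to D22, Nrl (1.38 ± 0.17, adjusted p = 9.18e-06), the rod nuclear receptor gene Nr2e3 (1.57 ± 0.25, adjusted p = 0.000174) and Crx (0.48 ± 0.10, adjusted p = 0.00341). From D22 to D25 Nrl alone rose (0.68 ± 0.16, adjusted p = 0.00625) and Otx2, Prdm1 and Rorb fell. From D25 to D30, when 6 members rose, none of these genes rose and 4 fell, namely Otx2 (-1.12 ± 0.11, adjusted p = 1.43e-08), Prdm1 (-1.87 ± 0.15, adjusted p = 3.72e-10), Rorb (0.499-fold, adjusted p = 5.17e-09) and Neurod1 (-0.65 ± 0.13, adjusted p = 0.00206). The values of Nrl, Nr2e3 and Crx in that step were all negative and not called, at -0.25 ± 0.16, -0.72 ± 0.24 and -0.38 ± 0.10 (adjusted p = 0.463, 0.0692 and 0.0142). For Nr2e3 every D30 organoid was nevertheless below every D25 organoid. From D20 to D30, Nrl and Nr2e3 were higher and Otx2, Prdm1 and Rorb lower. Of annotated genes, 2.56%, 7.33% and 4.55% were higher in the 3 steps and 25.1% over the whole interval. Of all tested features, 0.285%, 2.19%, 1.75% and 13% were lower in these comparisons.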

How the data were processed

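The authors prepared strand-specific libraries from rRNA-depleted total RNA of single organoids and sequenced them single-end at 75 bases. Per the methods, reads were trimmed (cutadapt 1.5), aligned with HISAT2 to GRCm38/mm10, new transcripts were assembled with StringTie (1.3.3), and reads on annotated genes or new loci were counted with HTSeq (0.6.1). The strand setting of the counting is not given in the sources used here. The deposited values are whole-number counts per feature without normalization, and the summary lines for unassigned reads were left out.

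Groups and replicate numbers came from the labels, 6 organoids at each of 4 timepoints. Features averaging fewer than 10 normalized counts were dropped, which left 46949 (16253 annotated genes, including all 9 members). The quasi-likelihood test of edgeR (4.0.16, R 4.3.3) was run on TMM-normalized counts in 1 fit of 24 organoids. Its p-values were adjusted by Benjamini-Hochberg across the 46949 features and called under 0.01, and standard errors follow from the test statistic. Differences of mean log2 ratios (0.5 added to each count) were tested by two-sided exact permutation of 6 against 6 organoids, whose smallest p is 0.002165, with adjustment over 51 tests and a threshold of 0.05.

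Symbols and positions came from a GENCODE annotation of the same build (46005 of 46603 identifiers matched). Annotated pseudogenes overlap Gnb1 and Pde6a on the opposite strand and Cnga1 on the same strand. The floor of 3 counts covers counting error alone, as no molecular identifiers were used, and the common biological coefficient of variation was 0.3846. Every one of 60 pairs of organoids from the same day differed beyond sampling noise, with a lowest chi-square of 5.997 per degree of freedom. The scripts were tested on simulated data.

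The members and lists were chosen with earlier results of these data known. Named were the 9 members, the genes of the lists and, for each member, the 3 annotated genes with the highest Pearson correlation of log2 normalized CPM among genes averaging 100 or more normalized counts. Some genes that this rule would name are not reported here. Alternatives were the test of DESeq2 (1.42.0), edgeR with the size factors of DESeq2, filterByExpr or no filter, only annotated genes, only the compared timepoints, the replicate block, a prior count of 2, and omission of each organoid.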

Additional observations from a re-analysis of the deposited data

Results flagged for a closer look

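Among the 36 groups of 6 organoids (9 genes at 4 timepoints), 1 held an organoid far from the others. D22 replicate 6 had 2.53 normalized CPM of Gnat1 (38 reads), and its gap to the next organoid was 0.799 of the range of the group, above Dixon's critical value for 6 samples. The other 5 organoids of that day held 1 to 8 reads. Chance puts about 1 in 20 groups past this limit. The same organoid was the lowest of its day in 4 other members, Gnb1, Pde6b, Cngb1 and Sag.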

How the results depend on the processing

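The number of members called kept its value under filterByExpr or no filter, the replicate block, DESeq2 and edgeR with its size factors in all comparisons, and stayed at 9 of 9 for D30 against D20. With annotated genes only it was 8 for D25 against D22 (Pde6b 0.60, adjusted p = 0.0196), and with the compared timepoints only it was 7 for D30 against D25 (Cngb1), where Gnat1 was too low to be tested for D22 against D20. Leaving out 1 organoid at a time gave 7 to 8 members for D22 against D20, 8 to 9 for D25 against D22, 5 to 6 for D30 against D25 and 0 for both differences of steps, and 14 to 17 ratios within the cascade and 21 to 22 ratios to Nrl. The log2 fold change of Pde6b from D25 to D30 had no stable sign: it was 0.0351 with DESeq2 and with its size factors, and -0.0661 to 0.112 when 1 organoid was left out.

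With a prior count of 2 the first-step log2 ratio changes were 0.35 for Sag to Gnat1, 0.13 for Pde6b to Gnat1 and -0.34 for Gnat1 to Nrl, each the reverse of the value with 0.5 and none called. Without 1 organoid they ranged from -0.55 to 0.48, from -0.80 to 0.24 and from -0.47 to 0.58, Sag to Nrl in the first step ranged from -0.15 to 0.12, and Pde6b to Nrl in the second from -0.0189 to 0.0383. Cnga1 to Gnat1 passed in the first step with a prior count of 2 (exact permutation test, adjusted p = 0.0184).

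The replicate numbers did not pair the organoids: 1 of 36 pairs with the same number had a correlation of deviations above 0.1, and the best match had its own number in 15 of 72 cases. The replicate block left the members called at 8, 9, 6 and 9. With paired ratios, 0 of 24 and 0 of 27 ratios passed, since 6 pairs allow no p below 0.03125 (lowest adjusted p = 0.0531). Over all features DESeq2 called 1605 where edgeR called 894 for D22 against D20, 64 against 21 and 173 against 13 for the differences of steps. For D25 against D22 the annotated genes split into 1191 higher and 474 lower, and into 1025 and 970 when they alone were filtered, normalized, fitted and adjusted. Depth limits Gnat1 at D20 and D22, with 22 and 65 reads in all.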
